A study of Capra hircus with 12 samples.

Results

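Among the genes that were well expressed in goat blood, 200 stood out for how widely their levels differed between single animals. They were chosen from read counts of 27271 gene identifiers in 12 whole-blood libraries. Counts were scaled to the library's reads assigned to genes (CPM), and the 100 identifiers with the highest mean CPM were left out. Of the 7673 that remained with a mean of 10 CPM or more, the 200 with the largest standard deviation (SD) of log2(CPM + 1) over all 12 goats are described here. The SD that chose them is given as a description, with no test. The proviral load of the goats was not used in the choice.

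The blood came from 12 female Carpathian goats with 1 library each, 6 labelled low and 6 labelled high in proviral copies of small ruminant lentiviruses. The age of the goats is not given in the sources used here, and no uninfected group is among the samples. Selection rested on provirus copy number, so neither group is a random sample of a herd. Goats are referred to by load group and label number, such as low 12 or high 27.

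Small ruminant lentiviruses are retroviruses of sheep and goats that infect monocytes and macrophages and stay in the host genome as provirus. Whole-blood RNA is a mixture from neutrophils, lymphocytes, monocytes, platelets and young red cells. The level of a gene in such RNA moves both with the number of cells that express it and with the RNA each cell holds. Fewer cells of a type and less RNA per cell cannot be told apart in these data. The deposited files give Ensembl identifiers without symbols, and 0 of 27271 matched the gene table used here. Roles, positions and sequences of the members, and a check of the tissue by cell markers, are therefore not given, and members are described by identifier.

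Reads assigned to genes ran from 6894973 (high 27) to 19204978 (low 12) per library. High 27, high 6 (8430250 reads) and low 15 (11010428 reads) had the fewest, and the other 9 libraries had 14047550 or more. The same 3 libraries had the largest share of records that overlapped several genes, 0.932% to 1.34% against 0.597% to 0.778% in the rest. High 27 and high 6 stood apart in many results below, which are given with and without them where they change.

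The spread that chose the members is described first. Their SD of log2(CPM + 1) ran from 1.05 to 3.63, with a median of 1.19, where the other 7473 well expressed genes had a median of 0.46. The SD computed for counting error alone was at most 0.113 for any member. Between the lowest and the highest goat, CPM + 1 of a member differed by a median of 16.9-fold, against 2.85-fold for the other well expressed genes. The range was over 10-fold in 177 members and over 100-fold in 11. Wide ranges follow from the choice by SD and are no separate result. The choice required a mean of 10 CPM or more, so rare transcripts could not become members. Mean levels of the members ran from 10.2 to 1066 CPM. Their median was 28.7 CPM, lower than the 42.3 CPM of the other well expressed genes. Just inside the limit of the choice stood ENSCHIG00000014840 and ENSCHIG00000022293, both with an SD that rounds to 1.05, and just outside it ENSCHIG00000010493 (1.05) and ENSCHIG00000023479 (1.04). The limit thus falls within a continuous range of values.

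**Figure D1:**
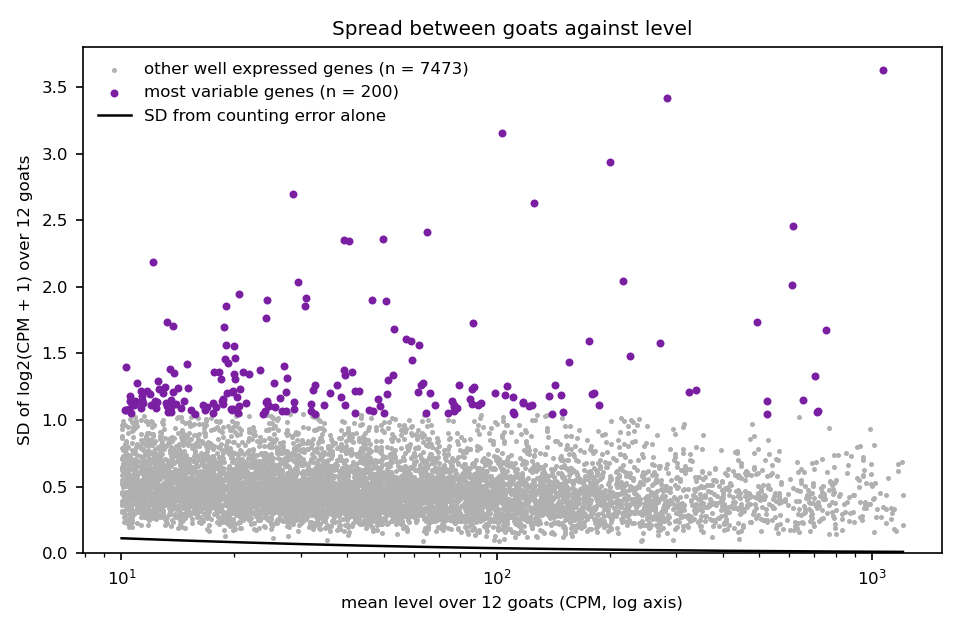
Each point is 1 gene, with its mean CPM over 12 goats on a log axis and its SD of log2(CPM + 1) over 12 goats. The 200 members lie between 1.05 and 3.63, and the SD computed for counting error alone, drawn as a line, stays at or below 0.113 for all of them.

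Membership rested in part on single goats. Without high 27, 153 of the 200 would still have been chosen, and without high 6 and high 27 together 135. Leaving out any other single goat kept between 166 and 194. With CPM rescaled by TMM factors, which correct for a few very abundant genes, 139 were kept. That rescaling multiplies the levels of low 15 by 1.40 and of high 27 by 1.34, while those of low 30 are multiplied by 0.827. Chosen within the 6 low-load goats alone, 120 of the members returned, and within the 6 high-load goats alone 133. The 2 choices shared 58 identifiers, and 58 of these 58 were members over all 12 goats. A large SD within both groups makes the SD over all 12 goats large, so this overlap follows largely from the rule.

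The extreme values of the members were spread unevenly over the goats. Low 12 had the highest value of 80 members (40% of them, against 24.4% of the other well expressed genes). High 27 had the lowest value of 65 members (32.5%, against 27.2%) and the highest of 29 (14.5%, against 6.80%). Low 26 had the lowest value of 34 members (17%, against 7.92%). By contrast, low 15 had the lowest value of 4 members (2%), although it had the lowest of 25.1% of the other well expressed genes. Together the members took up 1.04% (low 4) to 3.06% (high 27) of the reads in genes, with high 27, low 15 (2.75%) and high 6 (2.63%) above the other 9 goats, which stayed at or below 1.90%.

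Pairs of goats differed in how many members set them apart. High 31 and high 32 were the closest pair, with a median difference of 1.23-fold in CPM + 1 over the members and 12 members over 4-fold apart. They were also the closest pair over the other well expressed genes (1.09-fold), so this closeness is not particular to the members. Over the members, high 32 and high 33 followed (1.30-fold), then low 4 with high 32 (1.31-fold) and low 4 with high 33 (1.33-fold). The farthest pair was low 12 and high 27, with a median of 8.36-fold and 143 members over 4-fold apart, while the other well expressed genes differed by a median of 1.84-fold in that pair. The median over pairs was 2.17-fold between goats of different groups, 1.86-fold within the high-load group and 2.35-fold within the low-load group. The spread within groups had a median SD of 1.17 over the members in low-load goats and 1.33 in high-load goats. Without high 6 and high 27 it was 0.54 in the 4 high-load goats left, and the other well expressed genes then had 0.20. Without low 15 it was 1.19 in the 5 low-load goats left, and the other well expressed genes then had 0.34. These goats were left out because their values or libraries stood apart.

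Most members moved together with others. An average-linkage tree on Pearson correlations over the 12 goats, divided at a correlation of 0.5, placed 167 of the 200 in 6 sets of 5 or more, 27 in groups of 2 to 4, and 6 alone. Over all pairs of members the median correlation was -0.01, with 19.7% of pairs at 0.7 or more and 2.43% at -0.7 or less. Pairs of the other well expressed genes had a median of 0.24, with 14.4% and 5.89%. These sets were read from the values themselves, so they are descriptions, and all correlations are over the same 12 libraries.

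**Figure D2:**
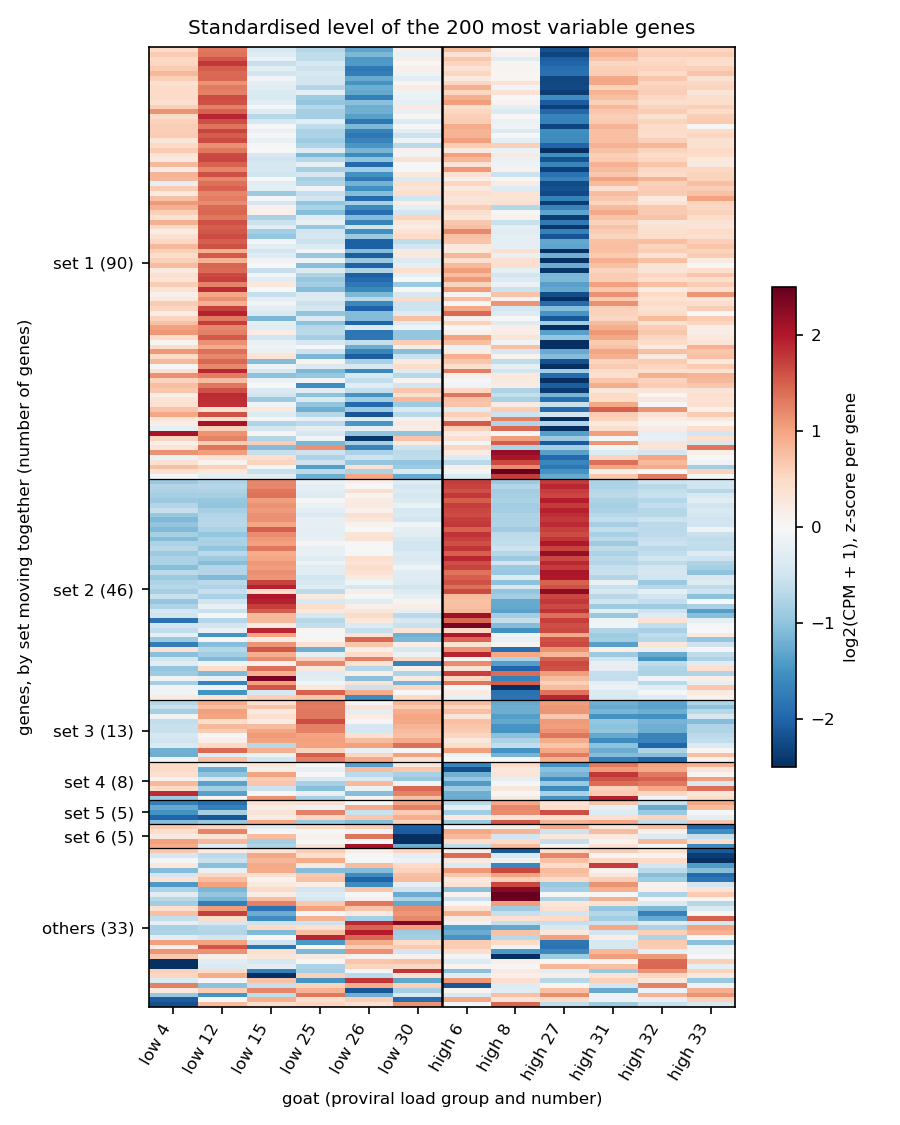
Rows are the 200 members grouped into sets that moved together, columns are the 12 goats, and colour is log2(CPM + 1) standardised per gene. Most of set 1 is blue in low 26 and high 27 and red in low 12, set 2 is red in low 15, high 6 and high 27, and most of set 3 is blue in high 8, high 31 and high 32.

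Set 1, the largest, held 90 members of modest level, with a median of 19.8 CPM. Relative to each gene's median over the goats, CPM + 1 of these genes was 2.55-fold in low 12, the highest goat for 75 of the 90. It was 0.185-fold in high 27 and 0.287-fold in low 26, and all 90 of its members had their lowest value in 1 of these 2 goats. The other 9 goats lay between 0.522-fold (low 25) and 1.48-fold (high 31). Both groups thus held a goat with much lower levels, and the goats of the groups overlapped. ENSCHIG00000027203, the member with the highest mean correlation with the rest of the set (0.88), had 12.5, 31.7 and 90.7 CPM as its lowest, median and highest low-load values. In high-load goats it had 6.24, 51.7 and 61.9 CPM, and high 27 alone lay under 35 CPM there.

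Within set 1, some members were almost absent from 1 goat. ENSCHIG00000021243 had 25.1 to 51.6 CPM in the low-load goats, with a median of 34.7 CPM, and 39.9 to 99.3 CPM in 5 of the high-load goats. High 27 had 2.03 CPM, from 14 reads. That goat held 76.1% of the gene's sum of squares, the largest share that 1 goat held in any member. Of all 200 members, 32 (16%) owed over 50% of their sum of squares to 1 goat, against 12.8% of the other well expressed genes. The goat was high 27 for 17 of them and high 8 for 5. Without high 27, 80 of the 90 members of set 1 still fell into a single set of 80.

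Set 2 held 46 members with higher levels, at a median of 77.7 CPM and up to 755.9 CPM. Their CPM + 1 was 5.44-fold of the gene median in high 27, 4.76-fold in high 6 and 3.53-fold in low 15. In the other 9 goats it lay between 0.662-fold (high 8) and 1.55-fold (low 26). These 3 goats were the 3 highest in 35 of the 46 members. Set 2 alone took up 2.04% of reads in high 27, 1.88% in low 15 and 1.77% in high 6, against 0.309% to 0.594% elsewhere. ENSCHIG00000017823, the most central member, had 20.7, 37.6 and 125.2 CPM as the lowest, median and highest low-load values and 20.8, 30.2 and 199.9 CPM in high-load goats. Its 3 highest values were 199.9 CPM in high 27, 196.3 CPM in high 6 and 125.2 CPM in low 15, and all other goats had at most 50.5 CPM.

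The 3 goats with high levels of set 2 were also the 3 with the fewest reads in genes and with the largest share of records over several genes. Multiply aligned records made up 17.3% to 21.0% in them and 13.8% to 18.2% in the others. Among the other 9 goats, the mean standardised level of set 2 also moved with these measures. Pearson's r was 0.87 with the share of multiply aligned records, 0.92 with the share over several genes and -0.71 with reads in genes, and Spearman's rho was 0.77, 0.88 and -0.57 (n = 9). Over all 12 goats, Pearson's r of set 2 with these 3 measures was 0.90, 0.86 and -0.96, and Spearman's rho was 0.87, 0.93 and -0.82. Set 1 moved with them in the opposite direction and less closely. Its Pearson's r was -0.67, -0.48 and 0.58, and its Spearman's rho was -0.75, -0.69 and 0.55 (n = 12). The levels and the measures come from the same libraries, so these are descriptions. With every library thinned to 6894973 reads, the levels of set 2 were 5.45-fold in high 27, 4.73-fold in high 6 and 3.55-fold in low 15. Random thinning leaves the CPM of a gene unchanged on average, so it shows only the counting error at that depth. Rescaled by TMM factors they were 8.36-fold, 5.97-fold and 5.63-fold. Over all members, 37 had a Pearson correlation of 0.7 or more with the share of multiply aligned records and 22 of -0.7 or less (n = 12 goats). That is 18.5% and 11% of the members, against 8.97% and 22.8% of the other well expressed genes. By Spearman's rho it was 15% and 17%, against 9.23% and 19.3%. For the share over several genes, Pearson's r gave 15.5% and 1.5% of the members, against 8.72% and 28.7% of the others. For reads in genes it gave 5% and 18%, against 29.7% and 8.81%. The part of sample handling or library quality in these levels was not tested.

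**Figure D3:**
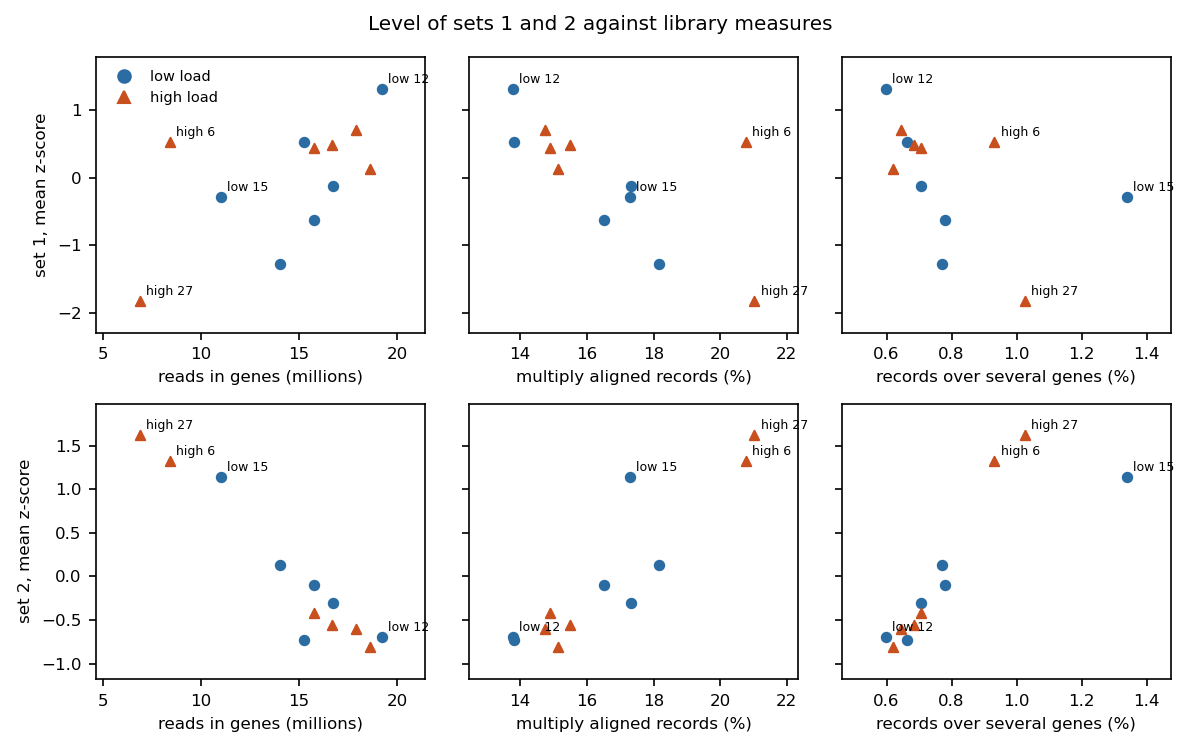
Each point is 1 goat, with the mean z-score of set 1 (top) or set 2 (bottom) against its reads in genes, its percent of multiply aligned records and its percent of records over several genes. High 27, high 6 and low 15 lie apart in the bottom panels, while in the top panels high 6 lies above the mean and high 27 is the lowest goat.

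Set 3 held 13 members, among them the 3 with the largest SD of all. CPM + 1 of this set was 4.06-fold of the gene median in low 25, 3.52-fold in high 27, 2.82-fold in low 30, 1.69-fold in low 12, 1.56-fold in low 15 and 1.49-fold in high 6. Low 26 lay near the median, at 0.898-fold. It was 0.317-fold in high 33, 0.211-fold in low 4, 0.191-fold in high 31, 0.163-fold in high 8 and 0.136-fold in high 32. The low goats of set 3 were thus 4 high-load goats and low 4, and these were the 5 lowest goats in 9 of the 13 members. Set 3 took up 0.869% of reads in low 25 and 0.00855% in high 32. The set was less separate than set 1: without low 12, low 25, high 31 or high 32, 10 to 13 of its members fell into a set of 53 to 56 that also held members of set 2.

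ENSCHIG00000024771 varied most of all members and also had the highest mean level. In low-load goats it had 44.3 CPM in low 4, 63.4 in low 26, 1384 in low 15, 1473 in low 12, 1558 in low 30 and 4480 in low 25. In high-load goats it had 3.55 CPM in high 8, 7.503 in high 32, 13.2 in high 31, 27.6 in high 33, 1088 in high 6 and 2653 in high 27. The lowest value still rested on 66 reads and the highest on 70622. Within each group the goats fell on both sides of a wide gap, with 2 low-load and 4 high-load goats below 64 CPM and the other 6 above 1000 CPM.

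ENSCHIG00000019220 and ENSCHIG00000011854 had a similar pattern with lower levels. ENSCHIG00000019220 had 14.2, 322.7 and 1099 CPM as its lowest, median and highest low-load values and 0.645, 6.56 and 797.5 CPM in high-load goats. ENSCHIG00000011854 had 2.76, 102.8 and 411.8 CPM in low-load goats and 0.592, 2.57 and 257.9 CPM in high-load goats. ENSCHIG00000018458, the most central member of set 3 (mean correlation 0.90), had 10.5, 138.6 and 473.4 CPM in low-load goats and 2.88, 6.56 and 282.8 CPM in high-load goats. In all 3 genes the highest goat was low 25 and the groups overlapped, with high 6 and high 27 among the low-load values. For ENSCHIG00000011854, high 33 (4.18 CPM) also lay above low 4 (2.76 CPM).

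Sets 4, 5 and 6 were smaller. Set 4, with 8 members, had its lowest value in high 6 or high 27 in 7 of them and was highest in high 31, at 2.76-fold of the gene median. Set 5, with 5 members, was 0.129-fold in low 12 and 0.221-fold in low 4 and reached 4.06-fold in high 8. Set 6, also with 5 members, was 0.0692-fold in low 30 and 0.256-fold in high 33, while all other goats lay between 0.520-fold and 1.60-fold. Low 30 and high 33 were the 2 lowest goats in 4 of its 5 members. For set 5, low 4 and low 12 were the 2 lowest goats in 2 of 5 members. These small sets depended on the settings. With the tree divided at a correlation of 0.7, at most 3 members of set 4, 3 of set 5 and 2 of set 6 stayed together. Without low 30, no set held more than 1 member of set 6.

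**Figure D4:**
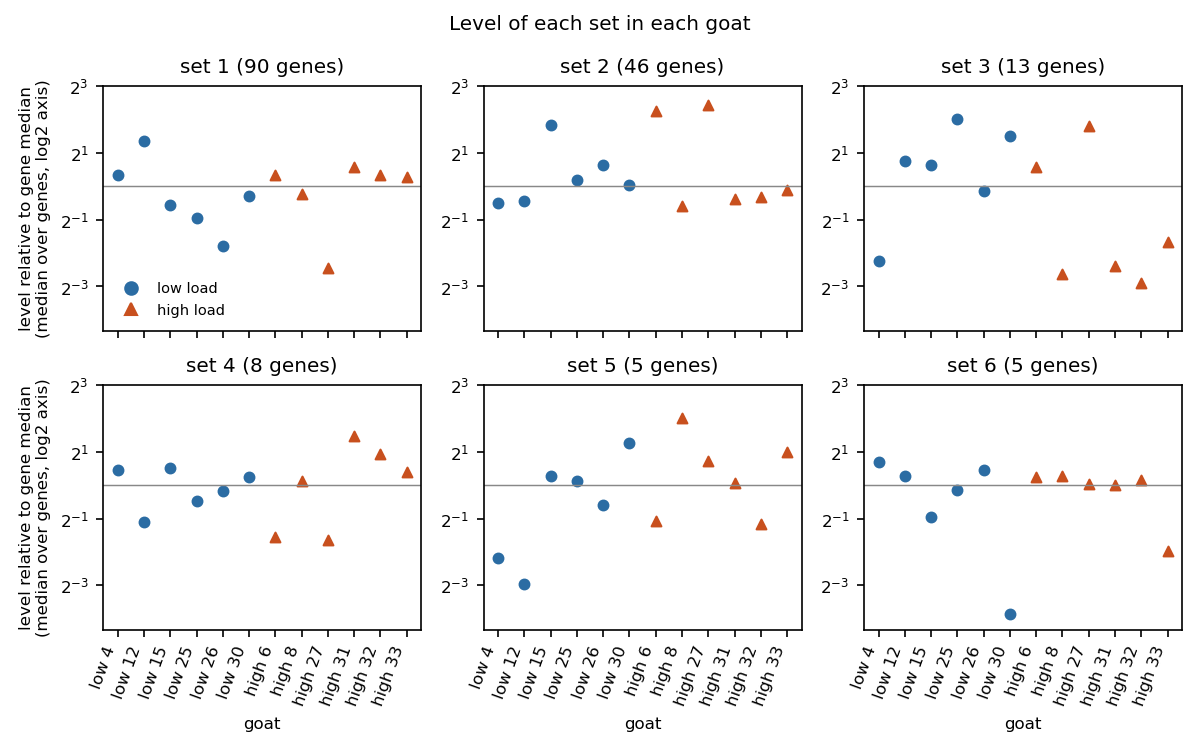
Each panel shows 1 set, with the 12 goats on the horizontal axis and, on a log2 axis, CPM + 1 relative to each gene's median, as the median over the genes of the set. Circles are low-load and triangles high-load goats, and in set 3 the 4 triangles other than high 6 and high 27 lie between 0.136-fold and 0.317-fold.

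A further pattern was a near absence in some goats. Of the members, 43 (21.5%) had under 1 CPM in at least 1 goat, against 11 of the other well expressed genes (0.147%), and 11 had it in 2 goats or more. A near absence in some goats raises the SD that chose the members, so this count is a description. High 27 accounted for much of this, with 18 members under 1 CPM where the other goats had 2 to 7, and without it the count was 27. A count of 0 in high 27 allows up to 0.435 CPM, taking 3 reads as the limit, which covers counting error only.

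In 5 members the largest gap between neighbouring goats filled over 50% of the range and parted 2 goats from the other 10. All but ENSCHIG00000006767 were singled out after their values were seen. ENSCHIG00000006767 had 0.317 CPM in high 33 and 0.323 CPM in high 8, from 5 and 6 reads. The other 10 goats had 126.3 to 384.0 CPM, with all 6 low-load goats at 132.7 CPM or more. ENSCHIG00000000010 was at 0 reads in low 12 and 0.328 CPM in low 4, and had 23.9 to 161.9 CPM in the rest. ENSCHIG00000022194 had 6.39 CPM in low 30 and 6.78 CPM in high 33, and 86.3 to 484.7 CPM elsewhere. ENSCHIG00000009670 had 0.788 CPM in low 4 and 1.08 CPM in low 30, and 7.02 to 19.1 CPM elsewhere. ENSCHIG00000018922 showed the reverse, with 92.4 CPM in low 30 and 47.9 CPM in low 26 and at most 1.42 CPM in every other goat. The pair of goats set apart was a different one in each of the 5 genes. Multiply aligned reads were not counted, so the levels of genes with near-identical copies are uncertain.

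The study compared high with low proviral load, a contrast the choice of members did not use. With edgeR's quasi-likelihood test on all 12 goats and Benjamini-Hochberg adjustment over 12941 genes, 0 of the members tested passed an adjusted p of 0.05, where 0% of all genes did. All members but 1 were tested, since ENSCHIG00000018922 did not pass the filter on low counts. At an unadjusted p under 0.05 there were 3 members (1.51% of those tested), all higher in high-load goats, where 2.45% of all genes tested reached it, 0.726% higher and 1.72% lower. DESeq2 gave 0 adjusted calls and 6 of 198 members at an unadjusted p under 0.05, 3 of them higher and 3 lower, where 3.18% of all genes did, 1.3% higher and 1.88% lower. The median log2 fold change, high minus low, was 0.14 over the members and -0.01 over all genes. Its standard error (SE) had a median of 0.63 over the members and 0.30 over all genes, so wide spread between goats went with wide errors. Between the groups lay a median of 2.36% of a member's sum of squares, against 2.80% for the other well expressed genes. In 0 members did the values of the groups part without overlap, where 0.124% of all genes tested did.

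The members with the smallest p did not pass the threshold and are given by their values. ENSCHIG00000019892 had 28.4, 76.8 and 127.9 CPM as its lowest, median and highest low-load values and 46.6, 109.7 and 1698 CPM in high-load goats. In edgeR the groups differed by 2.23 ± 0.82 (SE) on the log2 scale (adjusted p = 0.9999). High 8 alone had 1698 CPM where the next goat had 204.6 CPM, and without high 8 the difference was 0.55. ENSCHIG00000011606 had 3.68, 4.50 and 9.99 CPM in low-load goats and 1.99, 7.10 and 87.1 CPM in high-load goats. The difference of 2.33 ± 0.87 (SE) on the log2 scale (edgeR adjusted p = 0.9999) was 1.35 without high 6 and -0.34 without high 6 and high 27. The third, ENSCHIG00000026701, was named after its values were seen and had 229.7 CPM in high 8 and 10.3 to 51.1 CPM in the other goats. In each of these genes 1 or 2 high-load goats lay far above the rest, and the other high-load goats overlapped the low-load ones.

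In the other direction, ENSCHIG00000023266 of set 3 had 18.2, 34.8 and 55.1 CPM in low-load goats and 5.40, 9.97 and 33.2 CPM in high-load goats, which gave -1.05 ± 0.53 (SE) as log2 fold change (edgeR adjusted p = 0.9999). Its 4 lowest goats were high 32, high 31, high 8 and high 33, below every low-load goat, and high 6 and high 27 lay among the low-load values. ENSCHIG00000025642 had 4.09, 99.7 and 142.4 CPM in low-load goats and 10.2, 19.2 and 61.1 CPM in high-load goats, which gave -1.27 ± 0.65 (SE) as log2 fold change (edgeR adjusted p = 0.9999). Low 15, at 4.09 CPM, had the lowest value of all goats, while the other 5 low-load goats had at least 60.4 CPM.

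For set 3 the group comparison depended on the libraries and the test. All 13 members had a negative log2 fold change in edgeR, with a median of -0.76, and 0 reached an unadjusted p under 0.05. The set was formed from correlations over these same goats. A sign or call that its members share is therefore 1 profile and not 13 separate results. For ENSCHIG00000024771 the fit gave -0.88 ± 1.46 (SE; edgeR adjusted p = 0.9999). Its log2 fold change was -0.19 without low 25, -2.56 without high 27 and -7.02 without high 6 and high 27. The mean of log2(CPM + 1) was 9.20 ± 2.75 in low-load and 5.90 ± 3.86 in high-load goats (SD, n = 6 each). Limma-voom with sample quality weights, which weigh down libraries far from the model, called 8 members at an adjusted p under 0.05, all lower in high-load goats, where it called 0.131% of all genes. Of these 8, 7 were in set 3 and the other was ENSCHIG00000025642. In this fit ENSCHIG00000024771 had a log2 fold change of -6.17 (limma adjusted p = 0.0349), the lowest adjusted p of the 18 settings tried, in all others of which it did not pass 0.05. The weights were 0.208 for high 27 and 0.418 for high 6, and 3.66 and 4.01 for high 31 and high 32. High 8 had 1.09 and high 33 had 1.99. In the low-load group, low 25 had 2.01, low 30 had 1.65 and low 4 had 1.01. Low 26, low 12 and low 15 had 0.572, 0.469 and 0.402. At an unadjusted p under 0.05 this fit had 70 members (35.2% of those tested), 51 higher and 19 lower, where 17.9% of all genes did, 9.64% higher and 8.24% lower. Of the 70, 44 were in set 1 and 13 in set 3. Set 1 was also formed from correlations over these goats, so its 44 calls are likewise 1 profile and not separate results. High 27, the lowest goat of set 1, had the smallest weight.

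Counts of members also moved when libraries were left out. Without high 6 and high 27, edgeR had 38 of 200 members (19%) at an unadjusted p under 0.05, 11 higher and 27 lower, where 7.14% of all genes reached it, 2.83% higher and 4.31% lower. It still called 0 at an adjusted p of 0.05, with a smallest adjusted p of 0.167 among the members. Of those 38, 12 were in set 3 and 12 in set 2. Set 2 was highest in high 27, high 6 and low 15, and of these goats this fit kept low 15 alone. The members of set 2 move together, so its 12 calls are not separate results. The values of the 4 high-load goats left then lay below every low-load goat in 9 members (4.5%), 8 of them in set 3, and above every low-load goat in 0. Of all genes tested, 2.02% parted without overlap, 0.649% lower and 1.37% higher. In these 8 genes high 6 and high 27, which were set aside because they stood apart, had levels above the lowest low-load goat. The 8 genes belong to a set formed because its members move together, so they are not separate results. Without low 15 there were 24 of 200 members at an unadjusted p under 0.05, 22 of them higher, where 3.42% of all genes did, 1.39% higher and 2.03% lower. That fit kept high 6 and high 27, the other goats with high levels of set 2. The log2 fold change of ENSCHIG00000017823, the central member of set 2, was 1.57 in it and 0.80 with all goats. Members that move together are not separate results here either. Without high 27 alone there were 18, 8 higher and 10 lower, where 4.63% of all genes did, 1.85% higher and 2.78% lower. With all goats kept, edgeR and DESeq2 called 0 members of set 3.

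**Figure D5:**
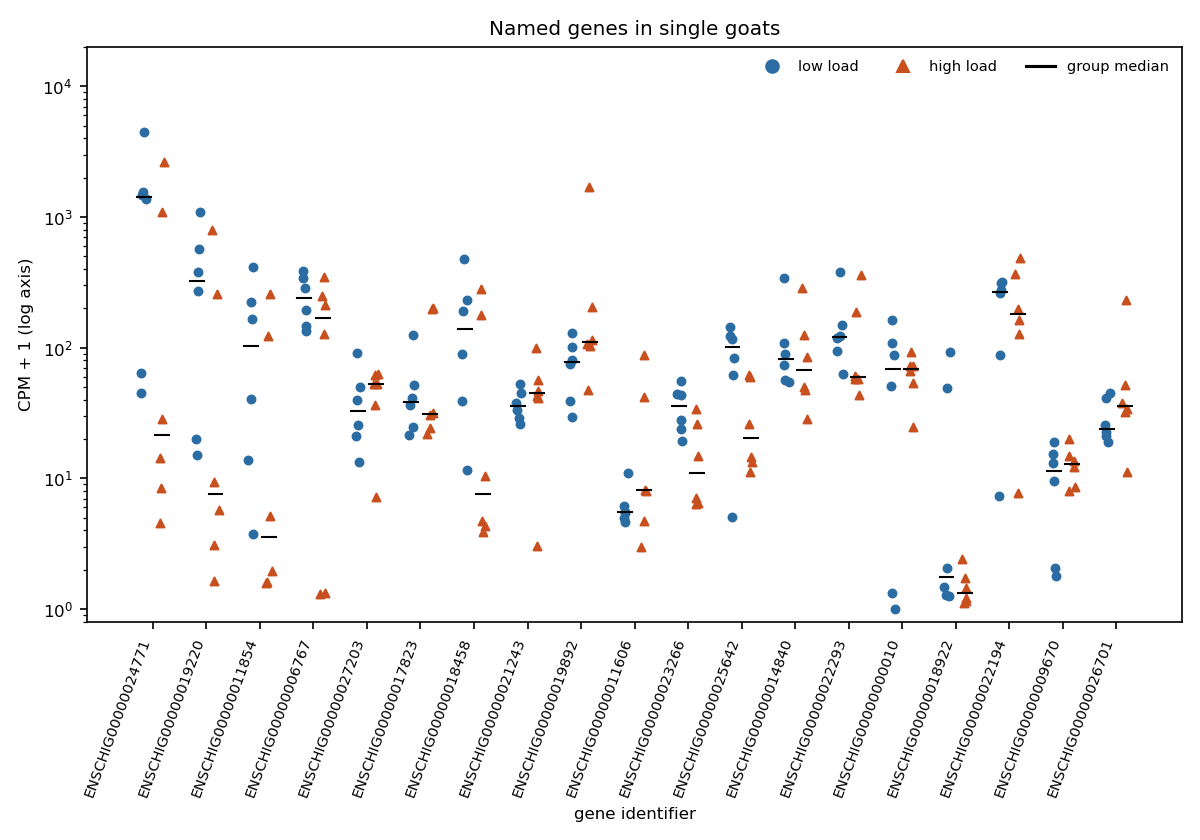
CPM + 1 on a log axis of 19 named members in the 6 low-load goats (circles) and 6 high-load goats (triangles), with bars at the group medians. The first 2 genes split each group across a wide gap, and ENSCHIG00000006767 shows 2 high-load goats near 0 CPM with all others above 126 CPM.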

How the data were processed

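Blood RNA was isolated from stabilised tubes and sequenced single-end, per the labels' protocols and the series design. The authors deposited unnormalized read counts for every Ensembl gene identifier in each goat. The submitters' processing notes list the tools FastQC, TopHat, HTSeq and DESeq2, while genome build, annotation and settings were not given in the sources used here. The 5 summary lines per file that name no gene stayed out of library sizes and tests, and of all records they held 31.2% to 36.6% without a feature and 13.8% to 21.0% aligned at several places.

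Group tests used edgeR 4.0.16 (quasi-likelihood, robust, TMM, filterByExpr with a minimum count of 10) in R 4.3.3, with limma 3.58.1 and DESeq2 1.42.0 as alternatives, over all genes with Benjamini-Hochberg adjustment. SEs are the fold change divided by the root of the F statistic. Trees and correlations used SciPy 1.17.1. The scripts were tested on simulated data. Each replicate is a different goat, and no batch is labelled.

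Members and lists were chosen with earlier results of these data known. Named members were the 4 with the largest SD, the one with the highest mean, the central member of the 3 largest sets, the one with the largest share of 1 goat, 2 higher and 2 lower with the smallest p, and those at the limit of the choice. Lists of cell markers by symbol could not be used. Alternatives were other scalings, pseudocounts, level limits, tests and goats left out.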

Additional observations from a re-analysis of the deposited data

Results flagged for a closer look

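In each group of 6 goats, the most extreme goat's distance to the next one was divided by the whole range of the 6 values. In 11 of 54 groups of values this ratio passed Dixon's critical value. Chance gives about 1 in 20 for independent values, but these genes were picked for their spread and many move together, so that rate is no fair reference.

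High 27 stood apart with a low log2(CPM + 1) of 2.86 for ENSCHIG00000027203 and 1.60 for ENSCHIG00000021243, with a mean standardised level of -1.83 for set 1, and with 18 members under 1 CPM. Low 15 stood apart with 3.46 on the log2(CPM + 1) scale for ENSCHIG00000011606, with 2.35 for ENSCHIG00000025642 and with 8.41 for ENSCHIG00000014840. For ENSCHIG00000022194 low 30 (2.89) and high 33 (2.96) lay far below their groups, and the same 2 goats had mean standardised levels of -2.13 and -1.06 in set 6.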

How the results depend on the processing

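With every library thinned to 6894973 reads, 189 of the 200 members were kept. What depth and library quality add to the levels was not tested. The number kept was 128 with a mean of 20 CPM or more (128 members have such a mean), 94 by median absolute deviation, 120 in low-load and 133 in high-load goats alone, and 153 to 194 with 1 goat left out. Their median SD was 1.0003 with a pseudocount of 5, 1.33 in high-load goats alone, and 1.09 to 1.22 with 1 goat left out. The median pairwise correlation was 0.0312 without high 6 and high 27 and -0.0169 to 0.0263 with 1 goat left out. There were 5 to 8 sets with 1 goat left out. Members under 1 CPM in some goat numbered 26 without high 6 and high 27, and 27 to 27 without high 27. Members at an unadjusted p under 0.05, 3 in the main test, numbered 6 in DESeq2, 70 in limma-voom with quality weights, 38 without high 6 and high 27, and 2 to 24 with 1 goat left out. Adjusted calls numbered 8 in limma-voom and 0 in every other setting, and groups without overlap 9 without high 6 and high 27 and 0 with 1 goat or none left out. Of 252 refitted fold changes of 14 named members, 239 kept their sign and their side of the threshold and 5 passed it, all in limma-voom. Signs changed for ENSCHIG00000017823 (-0.36 in limma-voom, -1.24 without high 6 and high 27) and ENSCHIG00000011606 (-0.34 without them), and with 1 goat left out for ENSCHIG00000011854 (-2.27 to 0.0272 over goats; positive without low 25), ENSCHIG00000014840 (-1.02 to 0.74) and ENSCHIG00000022293 (-1.05 to 0.53), the last 2 positive without low 15 and without high 8. The cause was not tested. The fit without the 100 most abundant genes, the Spearman tree, and the leave-outs for sets and for members under 1 CPM were chosen after seeing the data. No paired analysis was possible because no goat number occurs in both groups.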
